A study of Mus musculus with 6 samples.

Results

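Wide, solitary EZH2 binding sites that carried trimethylated lysine 27 of histone H3 (H3K27me3) in cells with an altered form of EED are described here. They are EZH2 peaks of the wild-type EED rescue that were at least 4400 bp wide, had no other EZH2 peak within 5000 bp and shared at least 1 bp with an H3K27me3 peak of the R302S rescue. The rule found 387 such peaks, called members below, of 3449 EZH2 peaks in all. Width, gap and overlap chose them, so those values are given as a description.

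The cells were mouse embryonic fibroblasts, which are connective tissue cells cultured from embryos. All groups share a deletion of EED: floxed cells were exposed to Cre recombinase, 1 knockout clone was kept, and lentivirus then supplied EED again, as the wild-type protein or with the change R302S or Y365A. Chromatin cut to mononucleosomes with micrococcal nuclease was precipitated with an antibody against EZH2 or H3K27me3 and sequenced. The 6 samples form 6 groups of 1 library each, and the lists of 2 libraries were used, EZH2 with wild-type EED and H3K27me3 with EED R302S; the other 4 samples were not analysed here. Antibody and EED form differ together between the lists and cannot be told apart, and because no group has a second library, conditions were not tested against each other. The lists hold positions without heights or scores, so the depth is unknown, the amount of mark cannot be given, and fibroblast identity could not be checked from marker genes.

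EZH2 is the enzyme of Polycomb repressive complex 2 (PRC2), which places methyl groups on lysine 27 of histone H3 and keeps developmental genes silent. Its partner EED binds the finished trimethyl mark, and this binding stimulates the enzyme, so that the mark can be copied from nucleosome to nucleosome away from the sites where PRC2 first lands. The question here is where inside a wide PRC2 site the mark lies when EED is altered: how much of the site is covered, from which end or from the centre, and in how many stretches. Regions are named below by position in mm9, counted from 1, with left meaning the lower coordinate. No gene annotation or genome sequence of mm9 was used here.

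Members were mostly covered, and the typical one almost entirely. Covered share ran from 3.57% to 100% of the peak, with a median of 90.0% (quartiles 59.2% and 100%). H3K27me3 filled 162 members from end to end, which is 41.9% of them (95% Wilson interval 37.0% to 46.8%; these intervals cover counting error over peaks only). At least 75% of the width was covered in 234 members, less than 50% in 68 and less than 10% in 9. In all, the members spanned 2.99 Mb, of which 2.29 Mb (76.5%) lay in H3K27me3 peaks. Over all 957 EZH2 peaks with H3K27me3 the median covered share was 91.7% and the end-to-end share 44.2%. The overlap that chose the members was present in 27.7% of all EZH2 peaks and in 64.2% of the 603 wide solitary ones.

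Full cover was reached even by very wide sites. The widest member covered from end to end spanned 23.8 kb on chromosome 2 (33480601 to 33504400), where H3K27me3 also ran 1.6 kb past the left end and 2.2 kb past the right. A site of 21.6 kb on chromosome 11 (118902801 to 118924400) was matched closely, with H3K27me3 ending 0.4 kb and 0.2 kb beyond it. The next were a site of 20.2 kb on chromosome 10 (79946801 to 79967000), one of 19.6 kb on chromosome 11 (97393801 to 97413400) and one of 19.4 kb on chromosome 12 (120074401 to 120093800). Of the 162 members covered throughout, 2 had H3K27me3 ending exactly at both ends of the EZH2 peak, and in the others it ran past at least 1 end.

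Several members missed full cover by a single end bin or little more. The highest covered share under 100% was 98.2%, at the site of 22.4 kb on chromosome 1 (157579401 to 157601800). A site of 10.2 kb on chromosome 5 (115875201 to 115885400) followed with 98.0% and a site of 8.4 kb on chromosome 9 (40679201 to 40687600) with 97.6%. The other two were covered to 97.4% on chromosome 18 (11049401 to 11057200, width 7.8 kb) and to 97.3% on chromosome 11 (96131201 to 96145800, width 14.6 kb). In each of them H3K27me3 ran past the covered end and stopped 0.2 or 0.4 kb short of the other.

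At the opposite extreme, small islands of H3K27me3 lay inside long EZH2 sites. On chromosome 5 an EZH2 site of 11.2 kb (144124601 to 144135800) held 0.4 kb of H3K27me3, 3.57% of its width, beginning 1.8 kb from the left end. Sites of 5.4 kb on chromosome 2 (26992801 to 26998200) and chromosome 5 (118720001 to 118725400) also held 0.4 kb each, 7.41% of the width. The islands of 0.4 kb have the smallest width in the H3K27me3 list, and 5 members had no more than 0.4 kb covered.

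The other 2 of the 5 least covered members lay close together on chromosome 8, in a stretch singled out after its values were seen. There an EZH2 site of 22.0 kb (125193201 to 125215200) was covered to 85.5% by 1 H3K27me3 peak of 18.8 kb. The next site, 9.2 kb to the right and 21.8 kb wide (125224401 to 125246200), was covered to 6.42%, with 1.4 kb of H3K27me3 lying 0.6 kb from its right end. A site of 23.8 kb further right (125276801 to 125300600) was covered to 5.88%, again by 1.4 kb, which lay 7.4 kb from its left end. Of these neighbouring sites of nearly the same width, the first thus lay a little below the median covered share of the members and the others near the lowest. EZH2 peaks of 4.2 kb (125255801 to 125260000) and 2.8 kb (125263601 to 125266400) between the last pair had no H3K27me3.

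**Figure D1:**
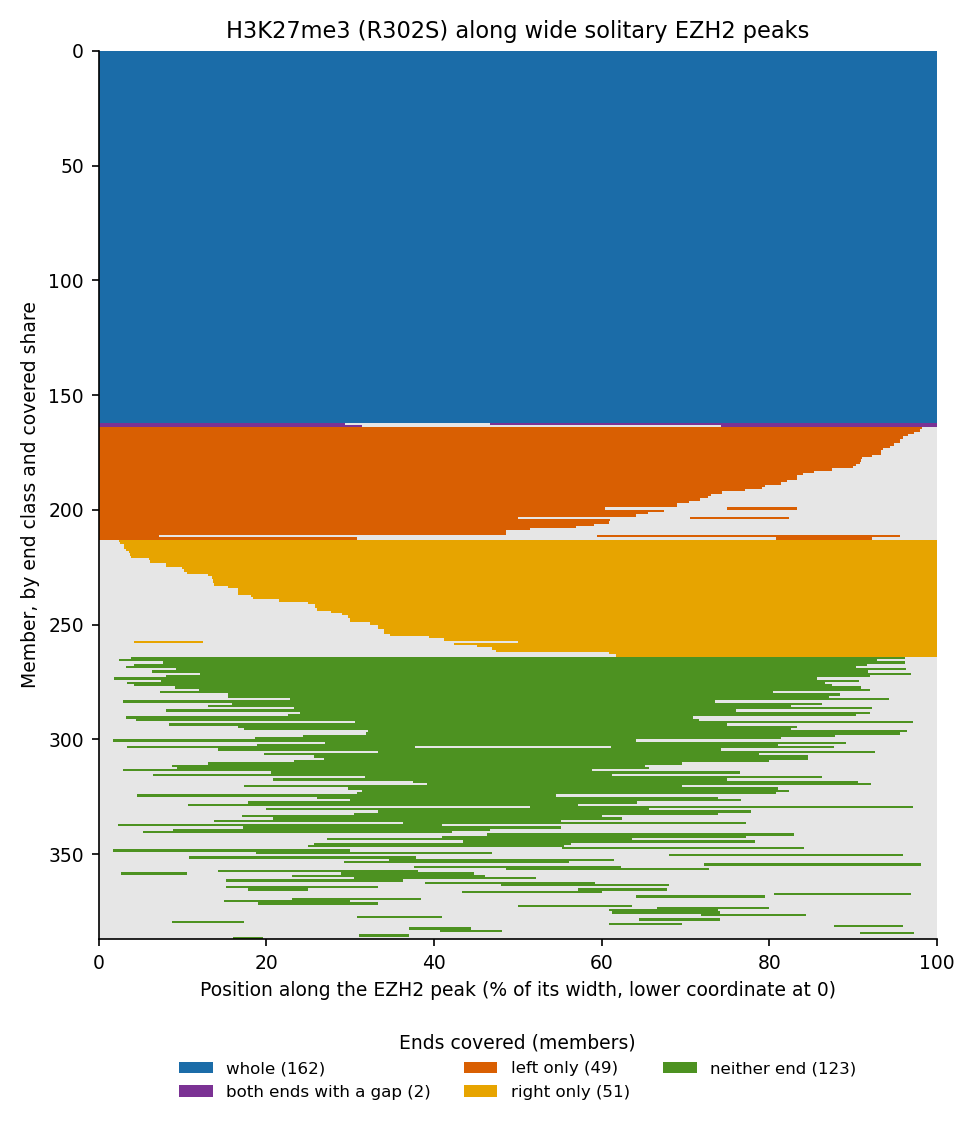
H3K27me3 of R302S cells along each of the 387 members, 1 row per member, with position as percent of the EZH2 peak's width on the horizontal axis; colour marks the ends that were covered and grey the uncovered part. The 162 members covered throughout fill the top, 49 and 51 were covered from the left or right end only, and 123 held H3K27me3 that reached neither end.

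The left and the right end were covered in nearly equal numbers of members. A member's end counted as covered when its outermost 200 bp lay in an H3K27me3 peak. The left end was covered in 213 members (55.0%, interval 50.1% to 59.9%) and the right end in 215 (55.6%, 50.6% to 60.4%). Both ends were covered in 164 members, of which 162 had no gap between them. A single end was covered in 100 members, the left in 49 and the right in 51. Neither end was covered in 123 members (31.8%, 27.3% to 36.6%). When it was enough that H3K27me3 reached into the outer 10% of the width, without covering it, 73 members remained with neither end counted. The size of this class thus depends on how an end is defined.

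Members covered from a single end were usually covered past their middle. Their covered share ran from 38.2% to 98.2%, with a median of 81.5%, and the uncovered stretch at the other end was 200 to 7200 bp long (median 1200 bp, quartiles 600 and 2400 bp). In 4 members covered from the left and 1 from the right, H3K27me3 formed 2 separate stretches. The gap between those is not counted in the uncovered stretch. The midpoint was covered in 94 of these 100, which for a single stretch from an end only restates a covered share of at least 50%. The widest of them covered from the left, after the site of 22.4 kb on chromosome 1, were 2 sites on chromosome 2, one of 17.4 kb (93476801 to 93494200, 90.8% covered) and one of 15.6 kb (38192001 to 38207600, 94.9%). The widest covered from the right were a site of 20.6 kb on chromosome 9 (62983201 to 63003800, 96.1%) and 2 on chromosome 4, of 15.8 kb (117157401 to 117173200, 78.5%) and 15.2 kb (114722401 to 114737600, 89.5%). The covered end faced the nearer EZH2 neighbour in 50 of the 100 members (interval 40.4% to 59.6%).

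In the 123 members with neither end covered, H3K27me3 lay inside the EZH2 peak, in 2 pieces in 3 of them and in a single stretch in the others. Their median covered share was 47.8% (quartiles 24.5% and 65.9%, range 3.57% to 92.3%) and their median covered length 3000 bp. The uncovered stretch was a median of 1400 bp on the left and 1600 bp on the right. The midpoint was covered in 87 of them (70.7%, interval 62.2% to 78.0%). Over all 123, the centre of the covered length lay left of the midpoint in 63, right of it in 51 and on it in 9. The widest of these members were the sites of 23.8 kb and 22.0 kb on chromosome 8 and a site of 23.4 kb on chromosome 17 (56275401 to 56298800), where 62.4% was covered, to within 0.4 kb of the left end but leaving 8.4 kb uncovered at the right.

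**Figure D2:**
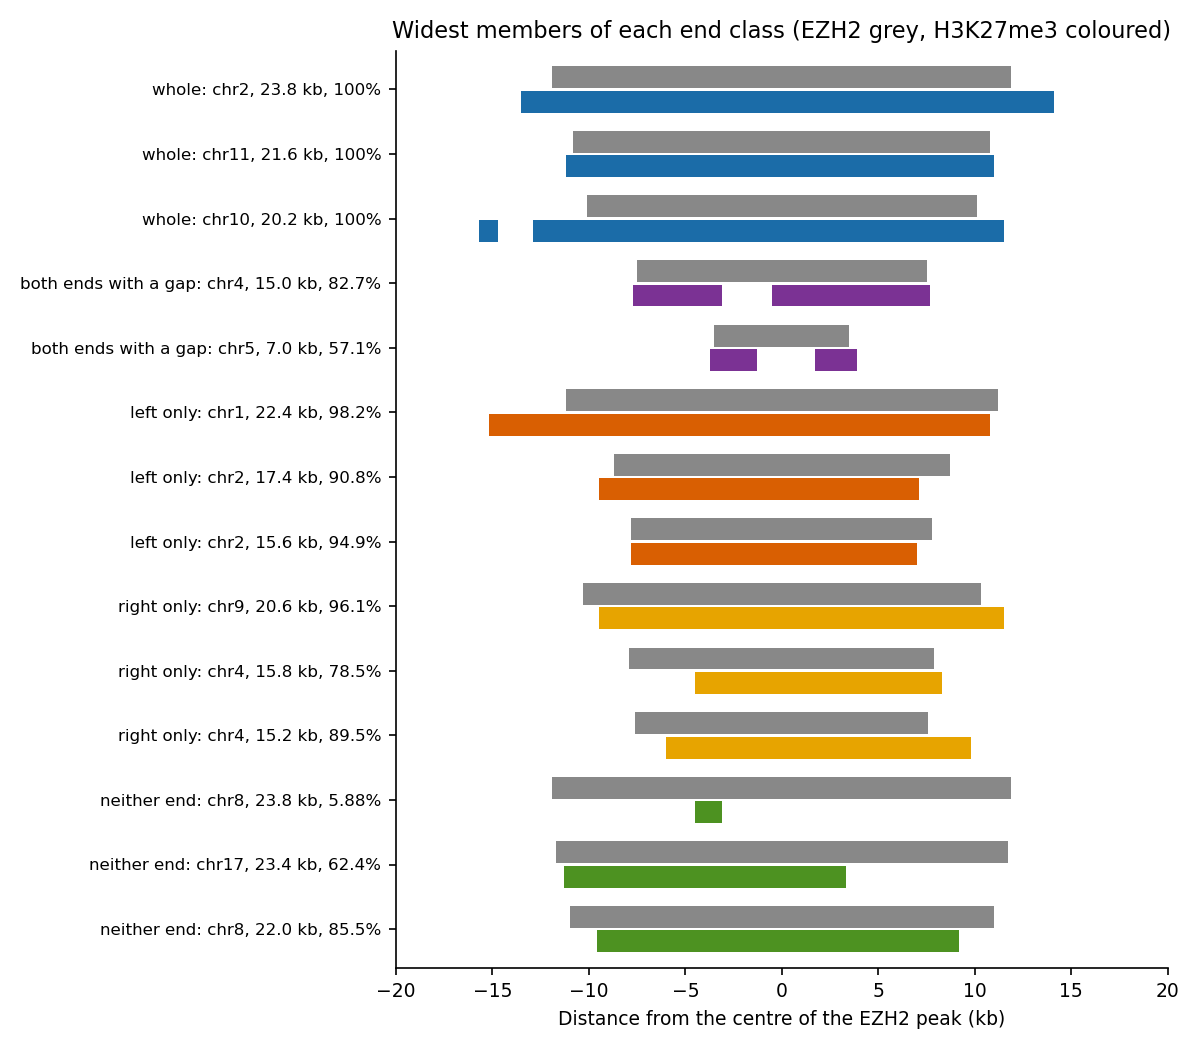
The 3 widest members of each class of end cover (2 in the class with both ends covered and a gap), drawn to scale in kb from the centre of the EZH2 peak, with EZH2 in grey and H3K27me3 in colour below it; labels give chromosome, EZH2 width and covered share. Most coloured bars span nearly the whole grey bar, whereas the site of 23.8 kb on chromosome 8 holds a short stretch off its centre.

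Cover was highest at the centre of the members and fell evenly toward both ends. Each member was divided into 20 parts of equal length, and cover was averaged over members. It was 57.5% in the leftmost part, 88.4% and 88.5% in the parts on either side of the midpoint, and 57.3% in the rightmost. Similar sets with H3K27me3 had the same shape. Solitary peaks under 4400 bp had 59.6% leftmost, 91.5% left of the midpoint and 60.8% rightmost. Wide peaks with a close neighbour had 48.6%, 81.5% and 45.4%. The midpoint itself was covered in 344 members (88.9%, interval 85.4% to 91.6%). A single stretch filling 50% or more of a peak must include its midpoint, which settles 313 of these members by geometry. The same geometry raises the middle of the averaged profile. Of the 64 members with a single stretch covering less than 50%, the midpoint was covered in 27 (42.2%, 30.9% to 54.4%). In 60 of these 64 the stretch touched neither end, and its centre lay within 16.7% of the width from the midpoint in 33, further left in 14 and further right in 13. Short stretches thus lay on both sides of the centre as well as on it.

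**Figure D3:**
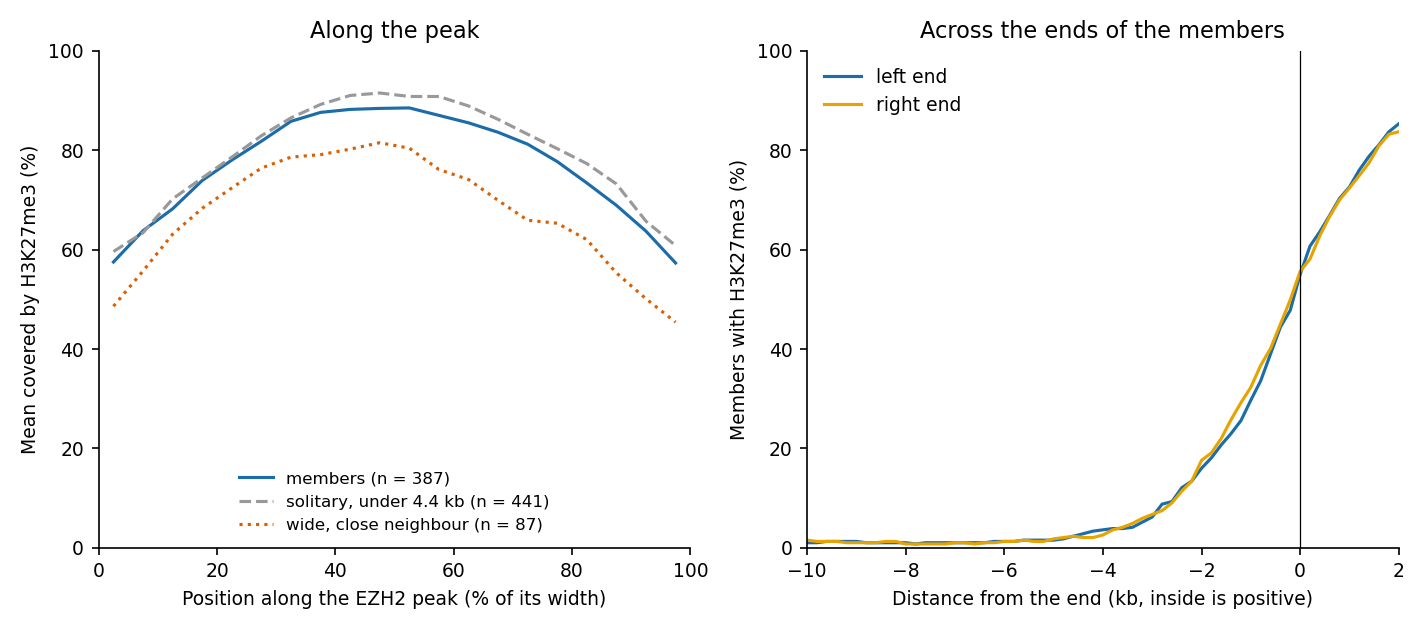
Left, mean share covered by H3K27me3 in 20 equal parts along the EZH2 peak, for the 387 members, 441 solitary peaks under 4.4 kb and 87 wide peaks with a close neighbour, all with H3K27me3. Right, share of the members with H3K27me3 at each distance from their left and right ends in kb; the mean of both ends is 31.0% at 1 kb outside and 72.5% at 1 kb inside.

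In the peak list, H3K27me3 came in a single piece in nearly every member. A single H3K27me3 peak met 377 members (97.4%, interval 95.3% to 98.6%), 2 peaks met 10 members, and none was met by more. The 10 members in 2 pieces were covered to between 17.9% and 82.7% (median 57.7%), and the gap between their pieces was 1400 to 7200 bp (median 2200 bp). Joining H3K27me3 peaks less than 2200 bp apart left 5 such members, and joining those less than 5000 bp apart left 1, so the count depends on how the peaks were merged. The smallest gap between H3K27me3 peaks anywhere in the list was 1200 bp. Shorter breaks in the mark therefore cannot be seen, either in single pieces or in members covered from end to end.

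The widest member in 2 pieces was a site of 18.0 kb on chromosome 13 (99122001 to 99140000), where stretches of 6200 and 4800 bp lay 4200 bp apart and neither the ends nor the midpoint were covered. On chromosome 4, a site of 15.0 kb (154322801 to 154337800) was covered at both ends by 4400 and 8000 bp with a gap of 2600 bp. A site of 13.8 kb on the same chromosome (150471601 to 150485400) had the longest gap, 7200 bp, between 1000 bp at its left end and 5000 bp near its right. A site of 9.6 kb on chromosome 12 (54347401 to 54357000) was covered to 68.8%, and one of 7.6 kb on chromosome 8 (126141001 to 126148600) to 23.7%. The only other member with both ends covered and a gap between was a site of 7.0 kb on chromosome 5 (98609401 to 98616400), where 2200 and 1800 bp at the ends were separated by 3000 bp. Cover at the ends with none at the midpoint was seen in that member alone.

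H3K27me3 of the members seldom reached far beyond them. The members were met by 396 H3K27me3 peaks, which make up 32.3% of the list's peaks and 49.5% of its length. Their median width was 6200 bp, with quartiles of 3800 and 9400 bp. The median piece had 90.5% of its length inside a member (quartiles 73.1% and 100%), and 154 pieces lay wholly inside. H3K27me3 ran past the left end of 185 members and the right end of 193, past both ends of 137, and in 146 (37.7%, interval 33.0% to 42.7%) it stayed within the EZH2 peak. Where it ran past an end, it did so by a median of 1300 bp (quartiles 600 and 2200 bp), and at 10 of 378 such ends by more than 5 kb.

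The profile across the ends was nearly the same on the left as on the right. At 1 kb inside the end, 72.6% of members had H3K27me3 on the left and 72.4% on the right. In the outermost 200 bp the values were 55.0% and 55.6%. At 1 kb outside they were 29.7% and 32.3%, at 2 kb 16.0% and 17.6%, at 3 kb 6.20% and 6.72%, and at 5 kb 1.55% and 1.81%. The absence of EZH2 neighbours within 5 kb was part of the rule, so this fall describes ends without a second EZH2 site close by.

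The 3 longest extensions were also the 3 cases in which a piece met a further EZH2 peak. On chromosome 10, H3K27me3 of 30.0 kb (42287201 to 42317200) linked 2 members 8.4 kb apart. It covered the right 39.1% of a site of 4.6 kb (42284401 to 42289000), running 28.2 kb past it, and all of a site of 17.8 kb (42297401 to 42315200). On chromosome 7, a piece of 27 kb (25712201 to 25739200) covered 96.6% of a member of 11.8 kb (25727801 to 25739600) and extended 15.6 kb to the left, over an EZH2 peak of 4.0 kb. On chromosome 13, a piece of 20.8 kb (95635801 to 95656600) covered a member of 7.6 kb (95637801 to 95645400) and extended 11.2 kb to the right, over an EZH2 peak of 2.6 kb. The other pieces touched no second EZH2 peak.

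Covered length grew with the width of the member while covered share did not. From the narrowest members to the widest, the median covered length was 4400 bp at 4400 to 5000 bp (88 members), 5200 bp at 5200 to 6600 bp (111), 6000 bp at 6800 to 8400 bp (92) and 9000 bp at 8600 to 23800 bp (96). The median covered share in the same order was 92.0%, 93.5%, 83.3% and 89.7%. Across the 387 members, width and covered length went together with Pearson r = 0.73 and Spearman rho = 0.61, where width also sets the upper limit of the covered length. Width and covered share gave r = -0.04 and rho = -0.05. End-to-end cover was found in 46.6%, 44.1%, 41.3% and 35.4% of the 4 width classes, and the lowest and highest have overlapping intervals (26.6% to 45.4% and 36.5% to 56.9%).

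**Figure D4:**
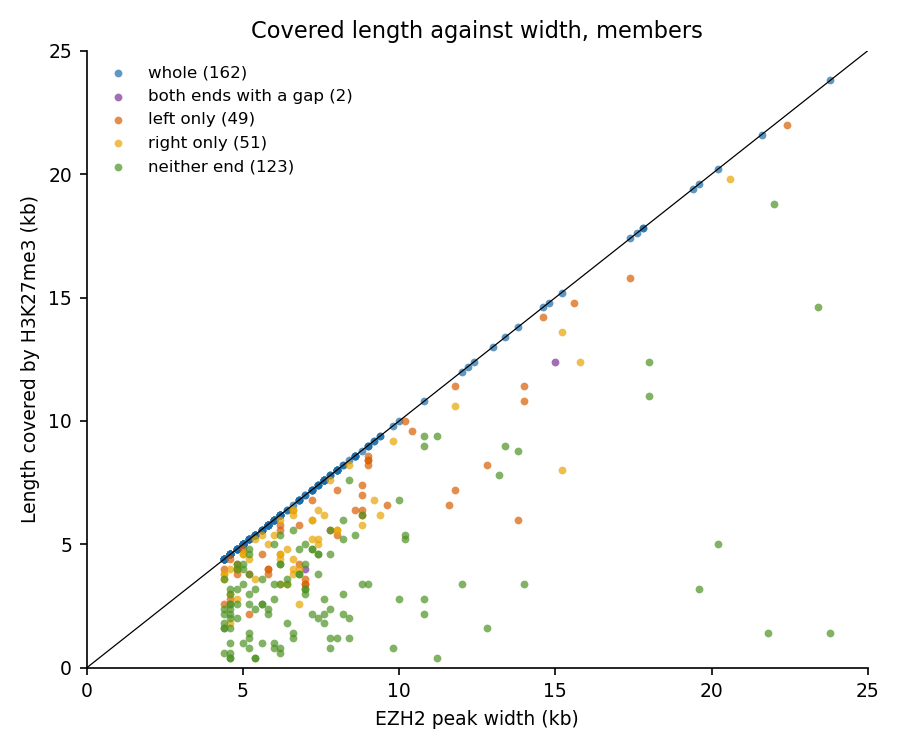
Length covered by H3K27me3 against the width of the EZH2 peak, both in kb, 1 point per member and coloured by the ends covered; the line marks full cover. Points on the line are the 162 members covered throughout, and members with little cover occur at all widths up to 23.8 kb.

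In these lists, members lay farther from other EZH2 sites than the wide solitary peaks without H3K27me3. The nearest EZH2 peak was a median of 78.2 kb from a member (quartiles 17.1 and 295 kb, n = 387) and 18.0 kb from the 216 wide solitary peaks that lacked H3K27me3 (quartiles 8.6 and 70.3 kb). The rule set only the minimum of this distance, for both sets alike. Solitary peaks under 4400 bp with H3K27me3 lay farther still than the members, at a median of 182 kb (quartiles 51.6 and 610 kb, n = 441). Members were also wider than the wide solitary peaks without H3K27me3, with a median of 6600 bp against 5800 bp. By width, 58.7% of wide solitary peaks were members at 4400 to 5000 bp and 56.3% at 5200 to 6600 bp. The share was 75.4% at 6800 to 8400 bp and 71.6% from 8600 bp on. Grouped by distance, 56 of 122 wide solitary peaks with a neighbour 5 to 10 kb away had H3K27me3 (45.9%, interval 37.3% to 54.7%). With H3K27me3 were also 51.5% at 10 to 20 kb, 59.0% at 20 to 50 kb, 73.3% at 50 to 200 kb and 82.8% (75.1% to 88.5%) at 200 to 1000 kb. Beyond 1000 kb it was 22 of 25, or 88.0% (70.0% to 95.8%). Peaks of 1 library are not replicates of a condition, so these shares are given with no test.

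In both ranges of width the lowest share was found at 5 to 10 kb. For peaks of 4400 to 6000 bp the share with H3K27me3 was 36.7% at 5 to 10 kb, 59.0% at 50 to 200 kb, 80.6% at 200 to 1000 kb and 90.9% (10 of 11) beyond. For peaks over 6000 bp it was 52.1% at 5 to 10 kb, 60.4% at 10 to 20 kb and 67.9% at 20 to 50 kb, and then 85.7%, 85.5% and 85.7% in the 3 classes from 50 kb on. Chromosome 17, whose 48 wide solitary peaks included 14 members (29.2%, interval 18.2% to 43.2%), had the lowest share of members of any chromosome. Without it the shares were 48.1% at 5 to 10 kb and 83.2% at 200 to 1000 kb. On 15 chromosomes with at least 5 peaks of each kind, the median distance was larger for members on 14. The exception was chromosome 18, with 304 kb for members and 384 kb for peaks without H3K27me3. Of the 4 chromosomes with fewer peaks of a kind, 3 also went the other way: chromosome 10 (96.6 kb for 22 members and 152 kb for 4 peaks without), chromosome 13 (35.0 kb for 13 and 206 kb for 2) and chromosome 16 (76.0 kb for 7 and 364 kb for 3). On chromosome 7 the distances were 83.4 kb for 10 members and 5.8 kb for 1 peak without.

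The number of EZH2 neighbours is another view of the same spacing, since a peak with none within 100 kb is one whose nearest neighbour is farther than that. Within 100 kb, 177 members (45.7%) had no other EZH2 peak, against 42 (19.4%) of the wide solitary peaks without H3K27me3. With no other EZH2 peak within 100 kb, 80.8% of wide solitary peaks were members (interval 75.1% to 85.5%), with 1 it was 66.9%, with 2 it was 63.3%, and with 3 or more it was 42.9% (36.0% to 50.2%). Covered share followed isolation loosely. The median was 70.5% for members with a neighbour at 5 to 10 kb, 96.4% at 10 to 20 kb, 83.3% at 50 to 200 kb and 100% beyond 1000 kb, and distance and covered share had Spearman rho = 0.12 over 387 members.

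**Figure D5:**
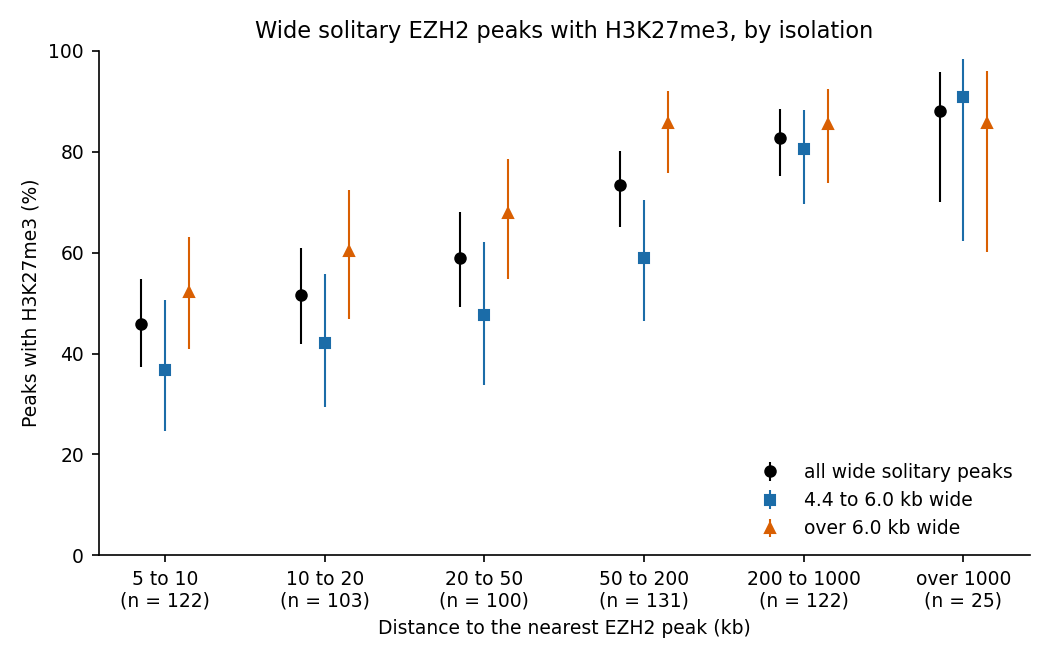
Share of the 603 wide solitary EZH2 peaks that had H3K27me3 in R302S cells, by distance to the nearest EZH2 peak in kb, for all of them and for 2 ranges of width; bars are 95% Wilson intervals, which cover counting error over peaks only. The share for all peaks runs from 45.9% at 5 to 10 kb to 88.0% beyond 1000 kb.

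The nearest EZH2 neighbour itself had H3K27me3 for 120 of 387 members (31.0%, interval 26.6% to 35.8%) and for 36 of 216 wide solitary peaks without the mark (16.7%, 12.3% to 22.2%). The members' share is near the 27.7% of all EZH2 peaks that had H3K27me3, which lies inside its interval. With the neighbour 5 to 20 kb away, 63.9% of wide solitary peaks were members if the neighbour had H3K27me3 (23 of 36) and 45.5% if it did not (86 of 189). At 20 to 200 kb the values were 77.8% (56 of 72) and 62.3% (99 of 159), and beyond 200 kb 85.4% and 82.8%. Neighbours can share a stretch of H3K27me3, as in the 3 cases above, and were counted all the same.

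Members were found on all 19 autosomes and X, from 5 on X to 43 on chromosome 5. Among the chromosomes with 20 or more wide solitary peaks, the share that were members was highest on chromosome 10 (22 of 26, 84.6%, interval 66.5% to 93.8%) and chromosome 1 (25 of 31, 80.6%). It was lowest on chromosome 17 and, next, on chromosome 4 (30 of 59, 50.8%, interval 38.4% to 63.2%). The 14 members of chromosome 17 also had the lowest median covered share of any chromosome, 61.2%, and the next lowest was 79.5% for the 19 members of chromosome 8. Chromosome medians rest on few peaks and were not tested.

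The most similar sets were smaller solitary peaks and wide peaks with a close neighbour. The 441 solitary peaks under 4400 bp with H3K27me3 had a median covered share of 93.3%, end-to-end cover in 46.7% (interval 42.1% to 51.4%), a covered midpoint in 92.3% and 2 pieces in 2 peaks. For 87 wide peaks that had an EZH2 neighbour within 5 kb and H3K27me3, the median covered share was 75.4%, end-to-end cover 31.0% (22.3% to 41.4%), the midpoint share 80.5% and neither end was covered in 42.5%. Both intervals of end-to-end cover overlap that of the members (37.0% to 46.8%), which does not show that the sets are alike, and no test was made.

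Peaks just inside and just outside the limits had the following values. At the narrowest width kept, 4400 bp, 22 of 40 solitary peaks had H3K27me3, with a median covered share of 88.6%. At 4200 bp, 27 of 59 did, with a median of 100%. A gap of 5200 bp, the smallest kept, was found in 7 wide peaks, of which 1 was a member, covered to 16.3%. A gap of 5000 bp was found in 5, of which 1 had H3K27me3, covered to 98.5%. The smallest overlap among members was 400 bp, whereas on chromosome 11 a wide solitary EZH2 peak (96032201 to 96039600) directly adjoined an H3K27me3 peak without sharing a base and was therefore no member. The next closest stood 5.4 kb from H3K27me3, on chromosome 4 (117179001 to 117185000) and on chromosome 7 (144500201 to 144507200).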

How the data were processed

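Peaks of 2 of the 6 libraries were analysed. The submitters' processing notes name Bowtie 1.0.0, deepTools and mm9. Which program called the peaks, at what threshold and against which control is not given in the sources used here. The deposited values are peak starts and ends, with no score. Positions in both lists follow bins of 200 bp with the last base of a bin as the end, so 1 bp was added to each end. Widths, gaps, overlaps of at least 1 bp, covered lengths and the covered ends (outermost 200 bp) were computed under Python 3.11.15 (pandas 2.3.3, numpy 2.4.6), checked on simulated peaks and against bedtools 2.31.1, which gave the same members and covered length. Wilson intervals (95%) came from scipy 1.17.1, and figures from matplotlib 3.10.9. The intervals cover counting error within 1 library, and neighbouring peaks are not independent.

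The members and the rules were chosen with earlier results of these data known. Regions named singly were the 5 widest members, the 5 with the highest covered share under 100%, the 5 with the lowest, the 5 widest covered throughout, the 5 with the most pieces, the 3 with the longest reach, the 3 widest of each end class and those next to a limit; others were named after their values were seen. Alternatives were other limits on width, gap and overlap, joined H3K27me3 peaks, autosomes only, other ends and, added after seeing the data, those for distance to the nearest EZH2 peak. The gene table at hand was of GRCm38, so no genes are named and no sequence is printed.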

Additional observations from a re-analysis of the deposited data

How the results depend on the processing

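Of 69 values recomputed under an alternative, 57 stayed within their interval or within 1.5 times the count reported, and 12 moved beyond it. With a minimum width of 6000 bp there were 241 members, 69.7% of wide solitary peaks; 94 had both ends covered, 77 neither and 234 a single piece, from fewer peaks by construction, and 55.5% of peaks with a neighbour at 5 to 20 kb had H3K27me3 (48.4% as reported). The share of wide solitary peaks that were members was 57.9% with a neighbour limit of 2000 bp, which keeps every wide peak, 68.8% with 10000 bp and 58.9% when 25% of the EZH2 peak had to be shared. With an end counted once H3K27me3 reached into the outer 10%, 73 members had neither end counted. Members in 2 pieces numbered 5 and 1 with H3K27me3 peaks joined under 2200 and 5000 bp. The median covered share stayed between 86.7% and 94.9%. Genes at members were not examined, as no mm9 annotation was used here. No paired analysis was possible because no group had a second library, and leaving out a library was impossible too. Since depth is unknown, nothing can be said of sites too weak to be listed.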
